A study of Mus musculus with 419 samples.

Results

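The proteasome subunit genes described were all protein-coding autosomal genes of the GENCODE vM21 annotation whose symbol starts with Psma, Psmb, Psmc or Psmd followed by a digit, 39 of 20620 autosomal protein-coding genes with a row in both tables. They were chosen by name, not by their values. They comprise the 14 standard subunits of the 20S core, 17 standard subunits of the 19S cap, the 3 immune subunits, the thymus subunit gene Psmb11, the testis subunit gene Psma8, the cap assembly chaperones Psmd5 and Psmd9, and Psmc3ip, a factor of meiotic recombination that only shares the symbol.

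The proteasome is the protease that degrades proteins marked with ubiquitin. Its barrel-shaped 20S core is built from rings of alpha subunits (Psma genes) and beta subunits (Psmb genes), and cutting is done inside the barrel by the beta subunits encoded by Psmb5, Psmb6 and Psmb7. A 19S cap at the end of the barrel holds a ring of ATPases (Psmc genes), which unfold the substrate and open the barrel, and non-ATPase subunits (Psmd genes), which bind ubiquitin, remove it and hold the cap together. Interferon exchanges the cutting subunits for the immune forms Psmb8, Psmb9 and Psmb10, which favour peptides for antigen presentation. Human embryonic stem cells are known for high proteasome activity.

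The data are single cells in G1 phase of F1-21.6, a female 129Sv-Cast/EiJ hybrid embryonic stem cell line, grown on laminin without feeder cells in medium with serum and LIF. There is 1 line, 1 condition and 1 group of 419 cells, so the 129 allele was set against the CAST allele within cells. Total RNA was read along whole transcripts by RamDA-seq, which adds no molecular identifiers, in 5 sequencing lanes. No separate cultures are named, so the cells are 1 sample, no test over cells was made, and ranges over lanes may be technical. The deposited values are whole numbers, taken to be scaled by the authors. Summed over alleles, a cell held 925852 in the median, with a range from 698363 to 1477656. The pluripotency genes Pou5f1, Nanog and Dppa5a had means of 260.3, 261 and 919.9 per cell, while the means of the 5 endoderm markers ran from 0.124 for Sox17 to 8.42 for Sox7, which had 1 in the median cell and 95 in the highest, and those of the 5 blood and immune markers from 0.00955 for Lyz2 to 1.33 for Cd3e. Of the 5 trophectoderm markers, the keratin gene Krt8 (mean 178, median cell 5) was high in few cells. Tfap2c had a mean of 56.8 and a median cell of 39, and was above 0 in 94.3% of cells. Gata3, Elf5 and Cdx2 had means of 5.56, 1.03 and 0.687. Of the 5 fibroblast markers, the collagen gene Col1a1 (mean 19.6, median cell 0) was high in few cells. The means of the others ran from 0.979 for Pdgfrb to 4.14 for Thy1.

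Promoter sequences are shown for 3 pairs of genes on which the results turn: 2 pairs of an immune subunit with the constitutive subunit it replaces, and Psma5 with Psma6, the members whose levels were most alike over cells. RefSeq windows (build GRCm38.p6, 250 bases before to 50 after a gene's start) were found for 32 of the 39 members, and the one nearest the start of the main protein-coding transcript is shown. Capitals mark TGANNNNGC on either strand, the core of the antioxidant response element that the transcription factors Nrf1 and Nrf2 bind and that is known from proteasome genes. The windows are Psmb9 at chr17:34187281-34187580 (minus strand), Psmb6 at chr11:70525107-70525406 (plus strand), Psmb8 at chr17:34197945-34198244 (plus strand), Psmb5 at chr14:54617946-54618245 (minus strand), Psma5 at chr3:108256676-108256975 (plus strand) and Psma6 at chr12:55398575-55398874 (plus strand).
Psmb9: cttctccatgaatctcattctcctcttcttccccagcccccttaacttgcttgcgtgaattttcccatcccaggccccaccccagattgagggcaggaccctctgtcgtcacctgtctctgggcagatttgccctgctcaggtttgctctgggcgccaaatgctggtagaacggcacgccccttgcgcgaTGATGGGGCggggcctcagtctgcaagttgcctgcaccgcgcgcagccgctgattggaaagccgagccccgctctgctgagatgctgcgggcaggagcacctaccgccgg
Psmb6: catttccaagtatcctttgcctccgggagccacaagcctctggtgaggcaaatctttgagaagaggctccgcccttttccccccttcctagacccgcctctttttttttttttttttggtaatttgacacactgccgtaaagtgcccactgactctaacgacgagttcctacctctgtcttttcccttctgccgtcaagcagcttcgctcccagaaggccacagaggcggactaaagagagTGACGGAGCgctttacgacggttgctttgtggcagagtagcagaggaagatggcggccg
Psmb8: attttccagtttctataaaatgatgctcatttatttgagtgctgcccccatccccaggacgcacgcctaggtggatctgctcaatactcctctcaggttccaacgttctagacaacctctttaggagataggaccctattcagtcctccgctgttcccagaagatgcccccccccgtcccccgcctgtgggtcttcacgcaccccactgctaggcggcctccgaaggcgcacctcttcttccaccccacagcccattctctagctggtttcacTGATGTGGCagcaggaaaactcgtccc
Psmb5: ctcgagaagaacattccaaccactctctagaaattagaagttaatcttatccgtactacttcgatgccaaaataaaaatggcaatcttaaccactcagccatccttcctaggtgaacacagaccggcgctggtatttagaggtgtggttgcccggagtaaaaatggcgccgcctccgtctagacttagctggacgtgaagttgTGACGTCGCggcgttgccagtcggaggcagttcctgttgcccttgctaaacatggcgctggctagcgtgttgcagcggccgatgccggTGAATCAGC
Psma5: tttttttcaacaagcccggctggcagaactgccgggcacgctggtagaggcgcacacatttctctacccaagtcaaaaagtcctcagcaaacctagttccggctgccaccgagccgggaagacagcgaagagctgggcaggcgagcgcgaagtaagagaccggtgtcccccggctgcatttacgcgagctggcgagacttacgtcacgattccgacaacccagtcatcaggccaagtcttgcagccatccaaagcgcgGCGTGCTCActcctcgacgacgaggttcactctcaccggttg
Psma6: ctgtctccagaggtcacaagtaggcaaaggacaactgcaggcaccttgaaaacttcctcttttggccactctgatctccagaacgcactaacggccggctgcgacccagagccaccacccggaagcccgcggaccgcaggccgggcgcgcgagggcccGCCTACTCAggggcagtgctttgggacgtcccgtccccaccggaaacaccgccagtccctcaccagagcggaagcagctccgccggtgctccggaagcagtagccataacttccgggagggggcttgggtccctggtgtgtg
The core was present in a window of 20 of 32 members (62.5%), against 45.6% of 15687 autosomal protein-coding genes with a window. The CCAAT box, searched on both strands, was present in 13 members (40.6%), against 41.7% of all genes. TTCNNNGAA, the interferon-gamma activated site, searched on both strands like all motifs, was present in 2 members (Psmb8 and Psmd2, 6.25%), against 9.05% of all genes. The core that interferon regulatory factors bind, written as GAAA, any 2 bases and GAAA, was present in 3 members (Psmb3, Psmd4 and Psmd9, 9.38%), against 4.05% of all genes. TATAAA, the TATA box, was present in 4 members (12.5%), against 14.4% of all genes. A gene with more than 1 window counts once, and a match is one of letters only.

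The standard subunits were detected in every cell, most of them at levels within 2-fold of the median subunit. All 31 had a value above 0 in all 419 cells, and the lowest value of any of them in any cell was 13. The 8 chaperonin genes compared below were also above 0 in all 419 cells. The share of all genes of like mean that were above 0 in every cell was not computed. Per annotated kb of transcript, with all rows of a gene counted, the mean levels of the standard subunits ran from 29.2 for Psma2 to 165 for Psmb4. The value of Psmb4 lay mostly in rows that do not encode the protein. The range was 5.64-fold, and 27 of the 31 lay within 2-fold of their median of 77.0. The median of the 34 members measured at this level was 75.9 per kb, against 16.4 per kb over all 8216 genes measured. Each is present once per ring or cap of the textbook particle. The SD of their log2 levels per kb was 0.66, against 0.41 over the 8 genes of the chaperonin CCT, another ring complex, whose highest level was 2.56-fold its lowest.

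Within the 20S core, the constitutive cutting subunits were the most alike, with levels of 129.1 per kb for Psmb5, 123 for Psmb6 and 115 for Psmb7. The structural beta subunits ran from 37.7 per kb for Psmb1 to 165 for Psmb4, and the alpha ring from 29.2 for Psma2 to 145 for Psma6. Psma2 is read on a transcript of 2911 bases with a coding part of 702 bases, so its level per kb depends on the annotated untranslated end. Not divided by length, Psma2 had 33 in the lowest cell, 85 in the median cell and 162 in the highest, and Psma6 had 30, 150.0 and 230.0. In the cap, the ATPase ring ran from 35.5 per kb for Psmc6 to 133 for Psmc4, and the non-ATPase subunits from 42.8 for Psmd12 to 139.5 for Psmd2, a large scaffold subunit. Psmd2 had the highest undivided value of the members, with 170.0 in the lowest cell, 398 in the median cell and 723 in the highest. The ubiquitin receptor gene Psmd4 and Psmd14, the gene of the deubiquitinase of the cap, were at 67.6 and 75.5 per kb.

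**Figure D1:**
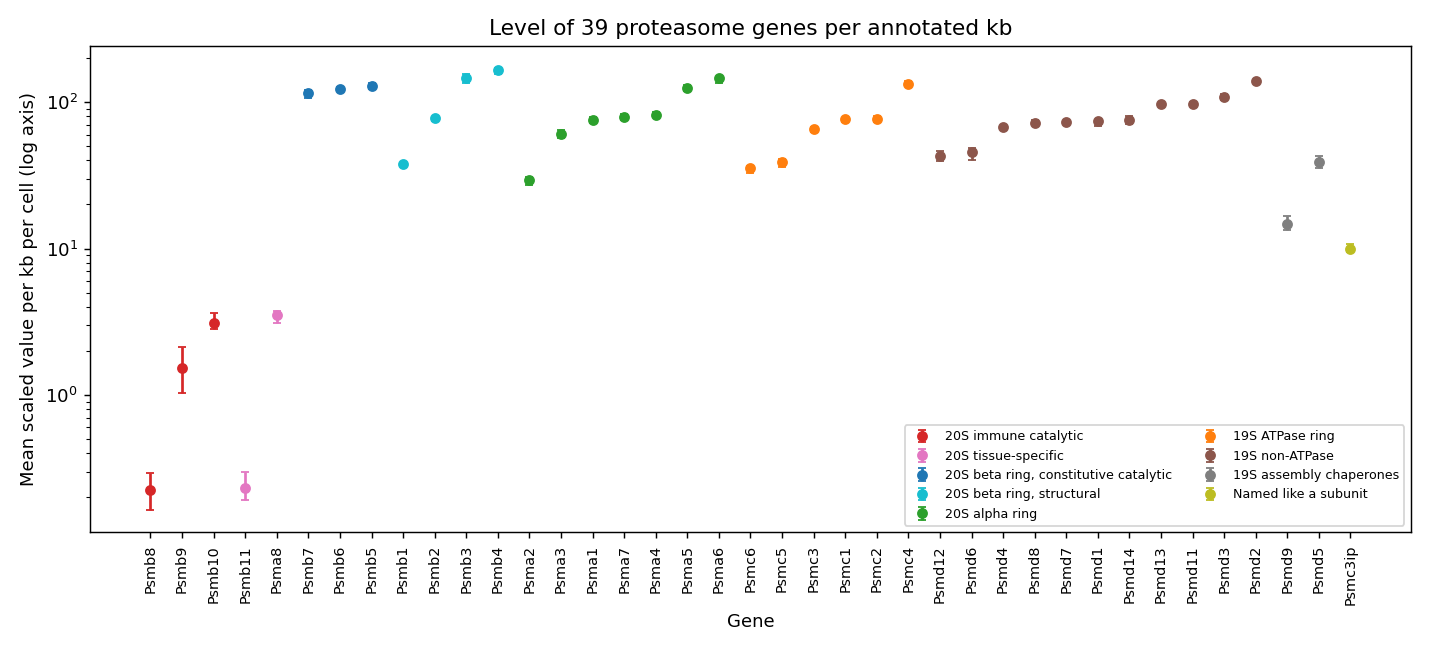
Mean scaled value per annotated kb per cell (log axis) of the 39 genes, grouped by role and ordered by level within a group; points are means over 419 cells and bars the range over 5 sequencing lanes. The 31 standard subunits lie between 29.2 and 165 per kb, and the immune, thymus and testis subunits between 0.226 and 3.52.

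Total RNA was read, and for some members much of the value lay in rows that do not encode the protein. In 4 members the row with most value was not protein-coding: Psma3, Psmb4, Psmd5 and Psmc3ip. Protein-coding rows held 31.5% of Psmb4, 39.6% of Psma3, 36.4% of Psmc3ip, 55.8% of Psmd5 and 56.8% of Psmd1. The largest row of Psmb4 is a 666-base transcript with a retained intron that held 42.7% of the gene. Retained-intron rows of 292 and 651 bases held a further 17.2% and 8.24%. The place of Psmb4 as the highest member per kb thus rests on short rows that encode no protein. With protein-coding rows only, the SD of log2 levels per kb over standard subunits was 0.77, and with 1 row per gene it was 0.88.

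The immune subunits were far below their constitutive counterparts in level. Psmb9 was at 1.53 per kb, against 123 for Psmb6, which it replaces at the caspase-like site; this is 1.25% (0.850% to 1.69% over 5 lanes). Psmb10 was at 3.09 per kb, against 115 for Psmb7 at the trypsin-like site, or 2.69% (2.40% to 3.42%). Psmb8 was at 0.226 per kb, against 129.1 for Psmb5 at the chymotrypsin-like site, or 0.175% (0.130% to 0.219%). Summed, the 3 immune genes were at 4.85 per kb, against 367 for the constitutive ones, a log2 ratio of -6.24 with an SD of 0.25 over lanes.

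Psmb10 was seen most often of these, in 350 of 419 cells (83.5%, exact binomial 95% interval 79.6% to 87.0%), with 0 in the lowest cell, 3 in the median cell and 46 in the highest. Psmb9 had a value in 143 cells (34.1%, 29.6% to 38.9%) and at most 12 in a cell. Psmb8 had one in 33 cells (7.88%, 5.48% to 10.9%), with 19 in the highest cell. All 3 were above 0 in 25 cells (5.97%), at least 1 of them in 371 cells, and 4 cells held 20 or more of any of them. These intervals cover counting error only, and a value above 0 does not by itself show that a cell makes the subunit.

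Genes of antigen presentation and interferon signalling were low in the same cells but uneven. Tapbp, which loads peptides on class I molecules, was highest of the 8 listed at 12.2 per kb, and Nlrc5, the activator of class I genes, lowest at 0.154. B2m was at 6.11 per kb, the peptide transporter genes Tap1 and Tap2 at 3.08 and 0.651, and the interferon factor Irf1 at 9.76. Over 419 cells, the level of Psmb8 moved with that of Psme2, a subunit of the interferon-inducible activator that binds the core (Pearson r of 0.477 on log2(scaled value + 1), from 0.443 to 0.511 over lanes, Spearman 0.367), though Psmb8 was 0 in most cells. Psme1 and Psme2, whose products form that activator together, had r of 0.549, and Psme2 had 0.462 with Tapbp and 0.406 with Irf1. Psmb9 and Tap1, which overlap on chromosome 17, had 0.398, and 13.8% of the coding row of Psmb9 is also sequence of Tap1. With the constitutive genes the values were lower or negative: Psme2 with Psmb5 had 0.165, Psmb8 with Psmb6 -0.216 (-0.343 to -0.088 over lanes) and B2m with Psmb6 -0.364 (-0.495 to -0.269). Cells share lanes and scaling, so these are descriptions. Of the 5 blood and immune markers, Ptprc was above 0 in 4 cells, Lyz2 in 2, Spi1 in 80, Cd3e in 150 and Cd74 in 169, at means of at most 1.33 per cell, and their part in these values was not tested.

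Of the tissue-specific subunits, the thymus gene Psmb11 was at 0.232 per kb, with 0 in the median cell and 10.0 in the highest. The testis gene Psma8 was at 3.52 per kb, against 79.3 for Psma7, the alpha subunit it replaces in germ cells. Psma8 had 0 in the lowest cell, 5 in the median cell and 24 in the highest, and was above 0 in 370 cells (88.3%, 84.8% to 91.2%). The chaperone genes Psmd5 and Psmd9, which help the ATPase ring form, were at 39.2 and 14.6 per kb. Psmc3ip was at 9.98 per kb.

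Genes of proteasome activation, assembly and regulation covered a wide range of levels. Of the activators, Psme3, the nuclear activator subunit, was highest at 87.3 per kb and the inhibitor gene Psmf1 lowest at 15.5. Among chaperones of 20S assembly, Pomp was highest at 67.2 and Psmg3 lowest at 16.5. Among partners of the cap, Uchl5, a deubiquitinase, was at 190.3 per kb, above every member, and the ubiquitin ligase gene Ube3c at 30.2. The place of Uchl5 depends on division by length, as its undivided mean was 99.0 per cell, against 398.3 for Psmd2. In the pathway that raises proteasome transcription when activity falls, the factor Nrf1 (gene Nfe2l1) was at 33.5 per kb, its protease Ddi2 at 21.5 and the deglycosylase Ngly1 at 2.84.

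Allele use was between 45% and 55% 129 for most members. Of the 39, 36 passed the filter on low values (a sum of at least 1000 and a value in 10% of cells); Psmb8, Psmb9 and Psmb11 did not. Psmd4 was left out because its alleles hold nearly the same value in each cell, which left 35. Their median 129 share was 50.7%, against 50.1% over all 11367 genes measured, and 27 of the 35 lay between 45% and 55%, against 57.5% of all genes. A 2-fold difference either way was seen in 3 of 35 members, against 8.96% of all genes measured. It was in favour of 129 in 2 members, against 3.59% of all genes, and in favour of CAST in 1 member, against 5.37% of all genes. A 1.5-fold difference was seen in 5 of 35, against 20.2% of all genes.

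Psma8 and Psma7 were read mainly from 129. Psma8 had a 129 share of 90.8% (85.1% to 94.2% over 5 lanes), at a mean of only 5.96 per cell. Psma7, an alpha ring subunit, was at 73.0% 129 (71.4% to 74.3%). Its rows differed: the main protein-coding row was at 81.6%, while a retained-intron row with 8.28% of the gene was at 18.2%. The coding rows of Psma8 and Psma7 share no 31-base stretch with another annotated gene. Psmd9 followed at 64.7% (63.0% to 67.1%). Psmd9 overlaps Hpd and 2 other annotated genes, and the sources used here do not say whether counting used strand.

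Towards CAST stood Psmc1, an ATPase, at 27.7% 129 (25.2% to 30.7%), Psmd8 of the cap at 37.3% (32.8% to 39.9%) and Psmb4 at 43.7% (40.7% to 45.5%). In Psmb4 the direction depends on the row, as its protein-coding row was at 21.8% 129 and its retained-intron rows at 47.4%, 63.2% and 66.7%. The 2 protein-coding rows of Psmd12 also differed, at 38.8% and 55.9%. Division of reads between rows is an estimate, so shares of single rows are uncertain. The 10 members that share more than 20% of their coding row with other annotated genes, often processed pseudogenes (74.0% for Psmb5, 66.8% for Psmb3, 66.5% for Psma5), are uncertain as well. Psmc1 is one of these 10, at 39.7%. Without these 10 the median 129 share was 51.4%.

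**Figure D2:**
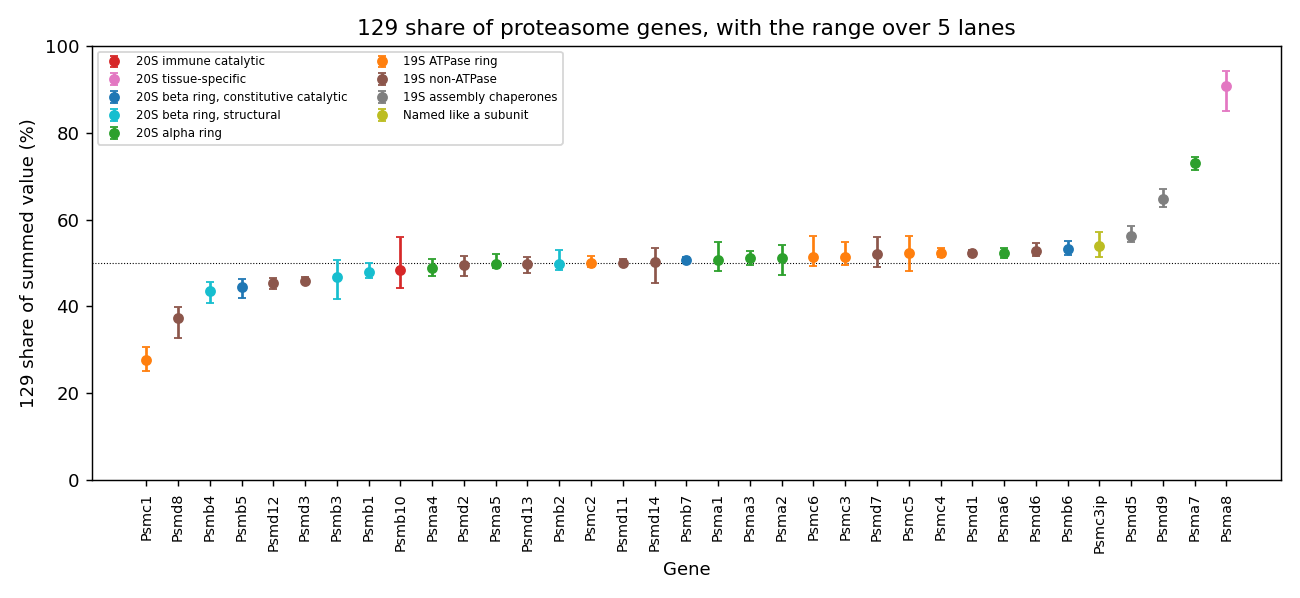
The 129 share of the summed value (%) of the 35 members with a share, in order of share; points are pooled over 419 cells, bars the range over 5 sequencing lanes, and the dotted line marks 50%. Psmc1 at 27.7% and Psma8 at 90.8% are the ends, and 27 of 35 members lie between 45% and 55%.

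Psmc1 lies on distal chromosome 12 (100110154 to 100123405, mm10), where this line is shifted towards CAST. The other 212 measured genes there, beyond 80 Mb, had a median 129 share of 31.5% (quartiles 28.0% and 36.6%). The shift belongs to part of the cells, so cells were described by the 129 share of those 212 genes, without Psmc1, at limits chosen after the values were seen. In 295 cells under 35%, Psmc1 was at 23.8% 129, against 48.9% in 118 cells between 42% and 58%. Its CAST value in the median cell was 107 in these shifted cells, against 31.3 in the even cells. Its 129 value was 32.7 in shifted cells, against 29.7 in even cells.

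The total of both alleles of Psmc1 also differed, with a mean of 146 ± 35.6 in shifted cells, against 63.0 ± 24.2 in even cells (SD over cells), a ratio of 2.31. The ratio lay between 2.13 and 2.52 in the 5 lanes taken singly. The other 158 distal genes of sufficient level had a median total ratio of 1.88 (quartiles 1.71 and 2.12), and 16 of them were at or above Psmc1. These 158 are part of the 212 genes whose 129 share set the groups of cells, while Psmc1 was left out of that share. Genes outside chromosome 12 had a median of 0.987. The other 33 members measured had a median of 1.04, from 0.895 to 1.17, and 0 of them reached the ratio of Psmc1. Psma6 (55384222 to 55418454) and Psma3 (70974621 to 70996347) lie on the same chromosome before 80 Mb. Psma3 averaged 60.0 ± 14.1 in shifted cells and 61.9 ± 16.4 in even cells. Psma6 averaged 150.1 ± 27.9 in shifted cells and 142.3 ± 33.0 in even cells.

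**Figure D3:**
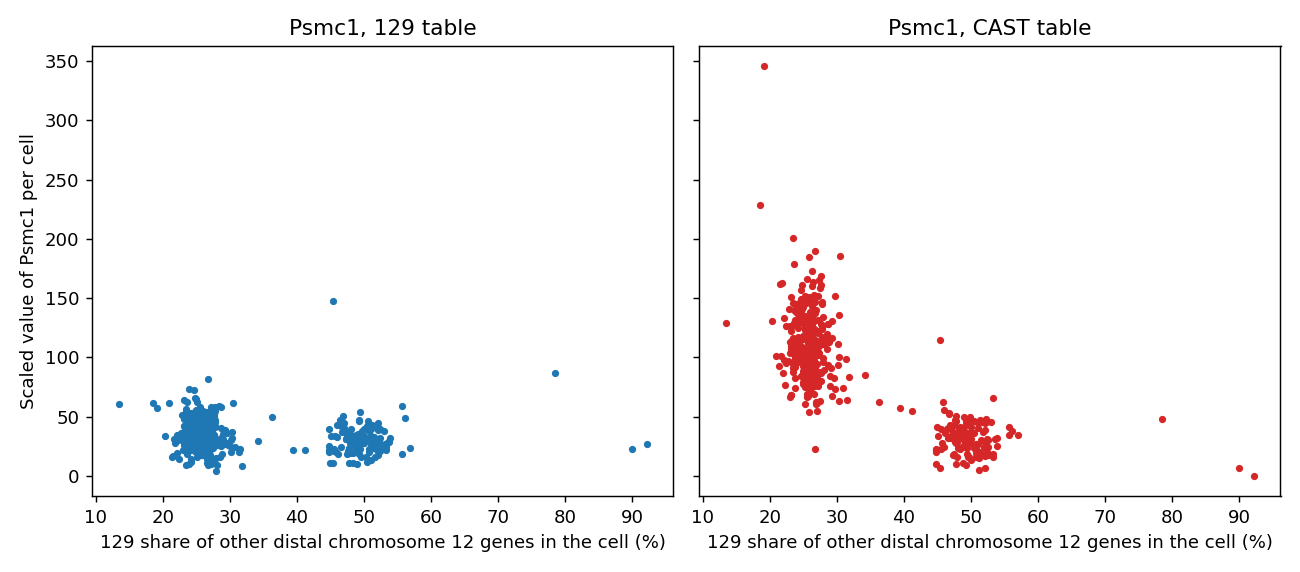
Scaled value of Psmc1 per cell in the 129 table (left) and in the CAST table (right) against the 129 share (%) of the other 212 distal chromosome 12 genes in the same cell; each point is 1 of 419 cells. The CAST values lie near 107 in the cells under 35% and near 31.3 in the cells from 42% to 58%, while the 129 values lie near 32.7 and 29.7.

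Summed over both alleles, the members varied little from cell to cell. Total noise is the squared coefficient of variation over the 419 cells. Its residual is the log2 distance from the running median of all genes ranked by mean, so it compares genes of like mean. The 34 members measured had a median total noise of 0.0494, against 0.218 over all 8216 genes, and a median residual of -1.17. In 26 of 34 members the residual was at or below -1, against 8.17% of all genes measured, and in 0 members it was at or above 1, against 21% of all genes. Residuals were below 0 in 33 of 34 members, against 49.6% of all genes.

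Psmb1 had the lowest residual at -1.88, followed by Psmd13 at -1.60 and Psmc6 at -1.57. By role, residuals were at or below -1 in 6 of 7 alpha subunits, in all 7 standard beta subunits, in 5 of 6 ATPases and in 7 of 11 non-ATPase subunits. Psmb1 had 33 in the lowest cell, 65 in the median cell and 133 in the highest. Psmc1 was the exception, with a residual of 0.69 and a total noise of 0.168, followed by the chaperone gene Psmd5 at -0.39 and Psmd3 of the cap at -0.40. Before scaling of cell totals, Psmc1 had values of 16 in the lowest cell, 129 in the median cell and 379 in the highest. Within the shifted cells alone its total noise was 0.0596, and within the even cells 0.146, while the other standard subunits had 0.0281 to 0.0764 over all cells. The count depends on how genes are matched: ranked by level per kb instead of by mean, 7 of 34 members were at or below -1, against 5.99% of all genes, with a median residual of -0.76 and 33 of 34 below 0, against 49.7% of all genes.

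**Figure D4:**
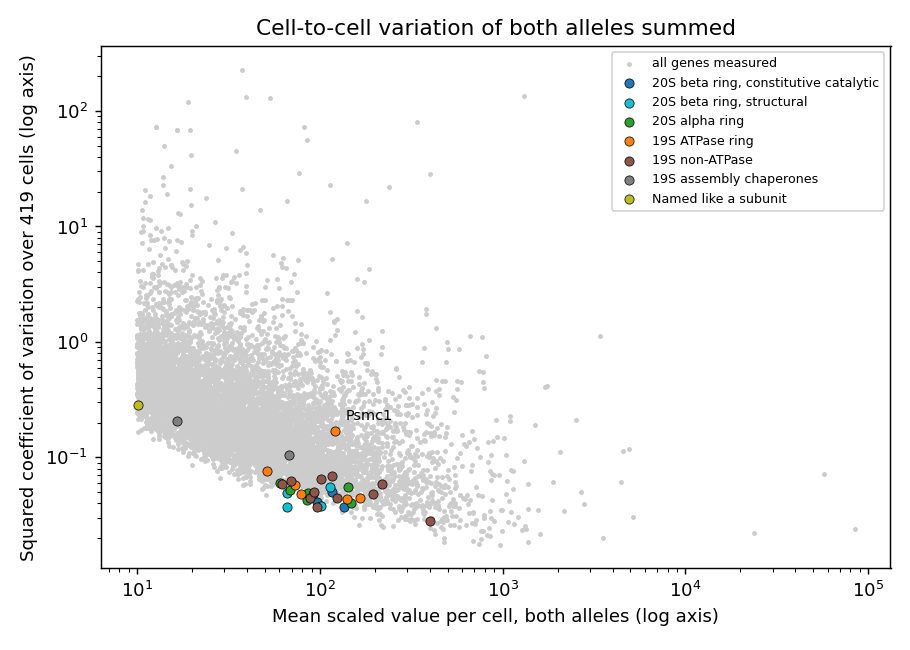
Squared coefficient of variation over 419 cells of both alleles summed, against the mean scaled value per cell (both log axes); grey points are the 8216 genes measured and coloured points the 34 members measured, by role. Most standard subunits lie at the lower edge of the cloud, between 0.0281 and 0.0764, and Psmc1 lies above them at 0.168.

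Partners of the complex gave mixed values. Among chaperones of 20S assembly the median residual was -0.97 over 5 genes, with Pomp at -1.16, and among partners of the cap it was -1.04 over 5 genes. The activators had a median of 0.48, with Psme2 at 1.77 and Psme3 at -0.84. Of the antigen presentation and interferon genes, Tapbp had 2.82 and Irf1 2.29. The 8 chaperonin genes had a median of -1.003.

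Between alleles the picture was different. Each allele was divided by its own mean. Intrinsic noise is then the squared gap between the alleles, averaged over cells and divided by 2, and shared noise is their product, averaged over cells, less 1. Of 32 members with both alleles at a mean of at least 5, the median intrinsic noise was 0.268, against 0.531 over 7411 genes, and the median residual for the mean was -0.24. Residuals were at or below -1 in 6 of 32 members, against 7.42% of all genes, and at or above 1 in 1 of 32, against 6.23%. They were below 0 in 21 of 32, against 49.8% of all genes.

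The members at the ends of intrinsic noise differed in how often their alleles had nearly the same value. Psmd11 had the lowest residual at -3.77, followed by Psmb7 at -1.60 and Psmc2 at -1.56. In Psmd11 and Psmc2 the gap between 129 and CAST was at most 10% of the total in 95.0% and 89.02% of cells, against a median of 19.8% over all genes, and the part of this in their low values was not tested. With Psmd4, 3 of 36 members had such alleles in at least 80% of cells, against 5.01% of all genes. For Psmb7 this share was 40.6%. At the other end, Psmd2 had a residual of 1.55, Psmd14 of 0.81 and Psma2 of 0.79. Of these genes, Psmd2, Psmb7 and Psmd11 share 45.3%, 33.5% and 28.4% of their coding row with other annotated genes. Psma2 and Psmd14 share 8.99% and 6.75%, and Psmc2 shares none. The part of shared sequence in these residuals was not tested.

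Shared noise was below 0 in 28 of 32 members, against 56.5% of all genes, with a median of -0.072, against -0.017 over all genes. It was lowest in Psma2 (-0.23), Psma4 (-0.19) and Psmd6 (-0.19) and highest in Psmc1, Psmd11 and Psmd3 (0.043, 0.035 and 0.017). A negative value means that a cell with much of one allele had little of the other. Pearson's r between the 129 and CAST values of a member over cells had a median of -0.321, against -0.053 over all genes, and was -0.5 or lower in 11 of 32 members, against 5.72% of all genes. In Psma2 it was -0.729 while the total of both alleles had a noise of 0.0430. For 12.6% of cells Psma2 was read from only 1 allele, at a median of 85 per cell. How reads without a strain variant were divided between the tables is not stated in the labels or headers, and its part in these values was not tested.

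The members moved together over cells to a moderate degree. Over 561 pairs of the 34 members measured, the median Pearson r of log2(scaled value + 1) was 0.201, against 0.037 for a member with any other gene measured. In each of the 34 members the median r with other members was above that with other genes. The share of all genes for which this holds was not computed. Members also had a higher mean, with a median of 94.5 per cell, against 36.3 over all 8216 genes measured. Within single lanes the median over member pairs ran from 0.127 to 0.297, and that with other genes from 0.006 to 0.094. Among the 31 standard subunits the median was 0.223 over 465 pairs, against 0.070 for a standard subunit with 2854 other genes of the same range of mean. Pairs within the 20S core had a median of 0.260, pairs within the cap 0.202 and pairs across them 0.219. The chaperonin genes were more alike, with a median of 0.540 over 28 pairs, and members paired with chaperonin genes had 0.224.

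The highest pairs were Psma5 with Psma6 (0.548), Psma1 with Psma5 (0.513) and Psmd3 with Psmb3 (0.505). Psma5 had the highest median r with other members (0.340), followed by Psma6 (0.314) and Psma1 (0.288). All 3 form the alpha ring. Outside the list, Psma5 was closest to the translation termination factor Etf1 (0.576) and the chaperonin genes Cct3 and Cct6a (0.563 and 0.542). Psma6 was closest to the mitochondrial chaperonin Hspd1 (0.578), Rpl36al (0.566) and Cct6a (0.553), and Psma1 to the mitochondrial channel Vdac1 (0.406), Hspd1 (0.403) and Etf1 (0.402). Lowest were Psmd8 and Psmd9, with medians of 0.036 and 0.046.

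Position on the genome went along with these correlations. The genes closest to Psmc1 were the translation initiation factor Eif2s1 (0.835, chromosome 12 from 78861819 to 78887010), the helicase Ddx24 (0.825, 103407982 to 103425830) and Slirp (0.793, 87443896 to 87452206), all on its own chromosome. Of the 34 members, 33 had a higher median r with genes of their own chromosome than with genes of other chromosomes, but so had 88.1% of all 8216 genes measured; Psma1 was the exception, at 0.033 and 0.048. Chromosome 11 carries 7 of the members measured (Psmb3, Psmb6, Psmc3ip, Psmc5, Psmd3, Psmd11 and Psmd12), and their 21 pairs had a median of 0.314 (0.215 to 0.455 over lanes). The pair Psmd3 with Psmb3 is one of them, and the genes closest to Psmd3 were Atp5g1 (0.612), Hspa4 (0.571) and Phb (0.557), all on chromosome 11. Members of chromosome 11 had a median of 0.128 with the other genes of that chromosome, against 0.047 with genes of other chromosomes. Pairs of members on different chromosomes kept a median of 0.197 over 514 pairs. These chromosome comparisons were added after the values were seen.

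**Figure D5:**
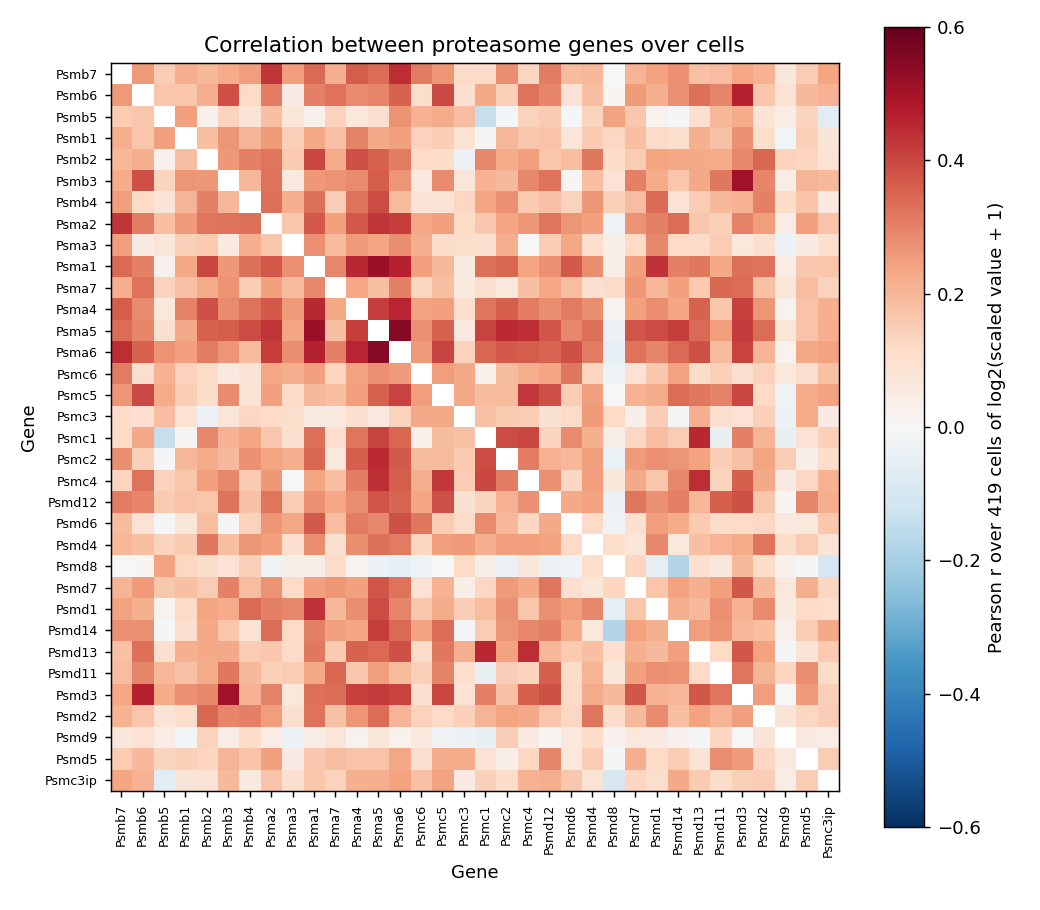
Pearson r over 419 cells of log2(scaled value + 1) for each pair of the 34 members measured, ordered by role as in the plot of levels; red is positive, blue negative and the diagonal is left blank. Psma5 and Psma6 stand out with r up to 0.548, and Psmd8 and Psmd9 have pale rows.

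Summed values of the parts rose and fell together to differing degrees, the 20S and cap sums most. The 20S sum had 504 in the lowest cell, 1387 in the median cell and 1957 in the highest, and the cap sum 985, 2207 and 3759.9. Both had a coefficient of variation of 11.7% over cells. On average the 20S sum was 0.149% of a cell's total and the cap sum 0.238%. The 20S and cap sums had an r of 0.779 over 419 cells (0.734 to 0.823 over lanes), the alpha and beta rings 0.684 and the ATPases with the non-ATPase subunits 0.563. The 20S sum with the chaperonin sum had 0.623, and the cap sum with the chaperonin sum 0.544. The ATPase sum includes Psmc1, whose total differed between shifted and even cells, and its part in the 0.563 was not tested. These sums share the scaling of cells to a common total.

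By allele the values were small. The 129 value of one member and the CAST value of another had a median r of 0.043 over 992 ordered pairs, against 0.011 for a member with other genes. Between 129 values of different members the median was 0.051, and between CAST values it was 0.049.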

How the data were processed

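A 129 table and a CAST table, deposited by the authors, hold 117762 transcript rows for 419 cells, and 0 columns were left unmatched. The submitters' processing notes name Bowtie 1.1.2 and mm10 but give no roles. The deposited whole numbers were treated as a score: their totals per cell had a coefficient of variation of 6.65%, narrower than is usual for raw counts of single cells, and they were taken to be scaled by the authors and rounded, so the depth in reads is unknown. No count test or binomial interval on reads was used.

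Rows were joined to GENCODE vM21 (116919 matched). A gene is the sum of its rows, since rows of a gene share sequence; level per kb divides each row by its transcript length. Genes with an equal-split index (squared difference between alleles over their sum) under 0.5 were left out of allele measures. For noise and correlations, cell totals were scaled to their mean; noise needed 5 per allele and a share of 10% to 90%, totals a mean of 10, and residuals used a window of 201 genes. Shared sequence was counted in stretches of 31 bases, against annotated transcripts. The noise, share and correlation calculations were tested on simulated data.

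The members and lists were chosen with earlier results of these data known. Total noise, the shared sequence, the chaperonin comparison and the comparisons on chromosomes 11 and 12 were added after the values were seen. Named by rule were the immune subunits with their counterparts, the ends of each measure and of each list, the highest pairs and members on chromosome 12; Psmd4, Psmd14, Psmd12, the row examples and the interferon pairs were picked afterwards. Some listed genes are not reported here. All cells were kept, and doublets were not called. Python 3.11.15, numpy 2.4.6, pandas 2.3.3, scipy 1.17.1 and matplotlib 3.10.9 were used.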

Additional observations from a re-analysis of the deposited data

How the results depend on the processing

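Of 99 alternative values, 87 moved by less than the spread over lanes, or, for counts, by less than 1.5 times. The other 12 moved further, and no log2 ratio, residual or correlation changed sign. Many of the 99 left out 1 lane and kept all other cells. Such values could hardly move beyond the spread of single lanes, so the 87 overstates how stable the results are. Leaving out each lane in turn gave a median 129 share of 50.1% to 50.9%, a total noise residual of -1.19 to -1.14 and 22 to 25 members at or below -1. With 1 transcript row per gene, the SD of log2 levels was 0.88, the log2 immune over constitutive ratio -6.64, the median 129 share 49.96%, on the other side of an even split, the median shared noise -0.110 and the median total noise residual -1.10. The SD of log2 levels was 0.77 with protein-coding rows only and 0.62 without division by length. At 1.5-fold, 5 members were called. Ranked by level per kb, the median total noise residual was -0.76 and 7 members were at or below -1; the cause was not tested. Without members sharing sequence the median 129 share was 51.4%. No paired analysis was possible because all cells form 1 group and replicate numbers only name cells; the alleles of a cell are compared within it throughout. Reads per cell are unknown, so no limit from depth is given.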

Other observations

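Psmd10, which encodes gankyrin, a further chaperone of the ATPase ring, lies on the X chromosome and was therefore not among the 39 genes. All its values are in the CAST table, with a sum of 3697, a mean of 8.82 per cell and a value above 0 in 416 cells; its value for 129 is 0. The X-linked pseudogenes Psmb6-ps and Psmb7-ps2 had means of 0.444 and 0.265 per cell, and their values for 129 were also 0. The autosomal Psmb5-ps and Psmb6-ps2 had sums of 1 and 2.

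Ubb and Rps27a encode ubiquitin, the mark the proteasome reads. With all rows counted they were at 472 and 369.7 per kb, against 165 for Psmb4, the highest member. Their total noise residuals were -0.62 and -0.63. Ubb was at 67.4% 129. Rps27a had an equal-split index of 0.225, under the limit of 0.5, and nearly equal alleles in 99.0% of cells, so no share is given.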
